A study of Mus musculus with 6 samples.

Results

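The genes described here, 10 in number, act at the 2 ends of canonical Wnt signalling. They are 7 secreted inhibitors (Sfrp1, Sfrp2, Frzb, Dkk1, Dkk2, Dkk3 and Wif1) and 3 target genes that serve as readouts of the pathway (Axin2, Lef1 and Nkd1). The genes were found by their symbol in the platform annotation, which gave 17 probes among the 19057 genes with a probe on the array. The genes were picked with results of the same comparison known, so their differences between genotypes are given as a description, with no p-value, and support nothing further. RNA from mouse embryonic fibroblasts (MEFs) was hybridized to single-colour Illumina BeadChips, with 3 Trp53-/- Dnmt1-/- and 3 Trp53-/- Dnmt1+/+ samples. The product of Dnmt1 copies DNA methylation to the new strand after replication. In the Dnmt1-/- MEFs both copies of the gene are a hypomorphic allele, by the study's description, and the absence of Trp53 is common to both groups. The sources name no second line of either genotype, so line and genotype cannot be told apart. Nothing states that replicates were grown separately, and errors and p-values here measure differences between these samples that may be technical. The age of the embryos and the background strain are not given in the sources used here.

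Wnt proteins are lipid-modified ligands that bind Frizzled receptors and LRP co-receptors, which stabilizes β-catenin and lets it activate genes with TCF and LEF factors. Secreted Frizzled-related proteins (Sfrp1, Sfrp2 and Frzb) and Wif1 bind Wnt ligands outside the cell, while Dkk1 and Dkk2 bind the LRP co-receptors. Axin2, Lef1 and Nkd1 are switched on by the pathway in many tissues, and Axin2 and Nkd1 in turn restrain it. Fibroblasts are a common source of both Wnt ligands and their secreted inhibitors.

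DNA methylation acts on CpG dinucleotides, and TCF and LEF factors bind a short motif that begins CTTTG, so the sequences before the start sites were read for both. RefSeq windows (GRCm38.p6) were found for 8 of the 10 genes, with 11 start sites in all, and there was none for Sfrp1 or Dkk3. The Axin2 window held 24 CpGs in the 250 bases before its start, more than 88.0% of all 32851 windows, and the Wif1 window held 21, more than 83.65%. Frzb and Sfrp2 had 16 each, Dkk2 had 7, Dkk1 and Nkd1 had 6 each, and the 4 starts of Lef1 had 5 to 14. The median over all windows was 6. Of the 11 windows, 5 lie wholly inside the annotated extent of their gene, among them those of Axin2, Sfrp2 and Nkd1. The Axin2 window begins 2271 bases inside the gene. The letters CTTTGAA, with T also allowed in place of either of the last A's, were searched on both strands. They were found in 2 of the 11 windows, against 14.8% of all windows of this length. Dkk1 had CTTTGAA 117 to 111 bases and CTTTGTT 98 to 92 bases before its start. For Lef1, 1 start had TACAAAG, a match on the opposite strand, 147 to 141 bases before it. That Lef1 window lies wholly inside the gene and begins 45747 bases from the gene's start, where the Lef1 windows held no match. A match is a description of the letters and not a binding site. Dkk1 and Wif1 are shown because their windows differ in both features, while neither gene gave signal above background in either genotype. Dkk1 had a median number of CpGs and 2 matches, which are in capitals (chr19:30549497-30549746, minus strand). Wif1 was rich in CpGs, which are in capitals, and held no match (chr10:121033754-121034003, plus strand). Both are the 250 bases before the start, 5′ to 3′.
Dkk1: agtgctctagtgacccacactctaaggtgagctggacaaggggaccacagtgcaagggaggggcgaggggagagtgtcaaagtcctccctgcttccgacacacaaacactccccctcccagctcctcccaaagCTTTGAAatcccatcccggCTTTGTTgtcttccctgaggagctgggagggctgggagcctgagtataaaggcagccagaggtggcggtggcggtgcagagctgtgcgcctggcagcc
Wif1: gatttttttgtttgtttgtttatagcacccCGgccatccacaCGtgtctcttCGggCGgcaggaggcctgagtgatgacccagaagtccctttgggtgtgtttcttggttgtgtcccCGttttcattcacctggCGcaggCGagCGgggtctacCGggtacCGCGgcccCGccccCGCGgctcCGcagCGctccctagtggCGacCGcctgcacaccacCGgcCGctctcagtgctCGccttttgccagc

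Array quality and the labels were checked first. A probe was taken as above background where its detection p-value, against the negative controls of the array, was under 0.01, which held for 14699 to 16499 probes per array. The mean raw signal of the Dnmt1-/- arrays ranged from 217.05 to 396.6, with replicate 1 the brightest, and that of the Dnmt1+/+ arrays from 326 to 357. Dnmt1 RNA averaged 7.55 ± 0.56 in Dnmt1-/- and 9.65 ± 0.20 in Dnmt1+/+ MEFs (normalized log2 signal, SD, n = 3 each), and the groups did not overlap. Whether its probe lies in the altered stretch of Dnmt1 is unknown. All 12 fibroblast markers with a probe were above background on at least 1 array. So were 2 of 7 epithelial markers (Krt8 and Krt14), 1 of 5 endothelial (Tek), 1 of 6 blood and macrophage (Csf1r) and 2 of 5 skeletal muscle markers (Myog and Des), while Epcam, Pecam1, Ptprc and Myod1 were above background on none. Of the fibroblast markers S100a4 was called higher and Fn1 and Thy1 lower in Dnmt1-/- MEFs.

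Of the 10 genes, 5 were above background on at least 1 array and 5 (Frzb, Dkk1, Dkk2, Wif1 and Nkd1) on none. Over all genes with a probe, 51.9% were above background on at least 1 array. By role, 3 of 7 secreted inhibitors and 2 of 3 target genes gave signal on some array. The detection filter, which asks for signal above background on at least 3 of the 6 arrays, was passed by Sfrp1 and Dkk3 alone. Sfrp1 is the 1 of these 2 that was called in the fit over all probes, as lower in Dnmt1-/- MEFs, where 17.4% of the 8716 genes tested were called in either direction and 7.82% were called lower. Nothing is read from that count, because the genes were picked with the comparison known.

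**Figure D1:**
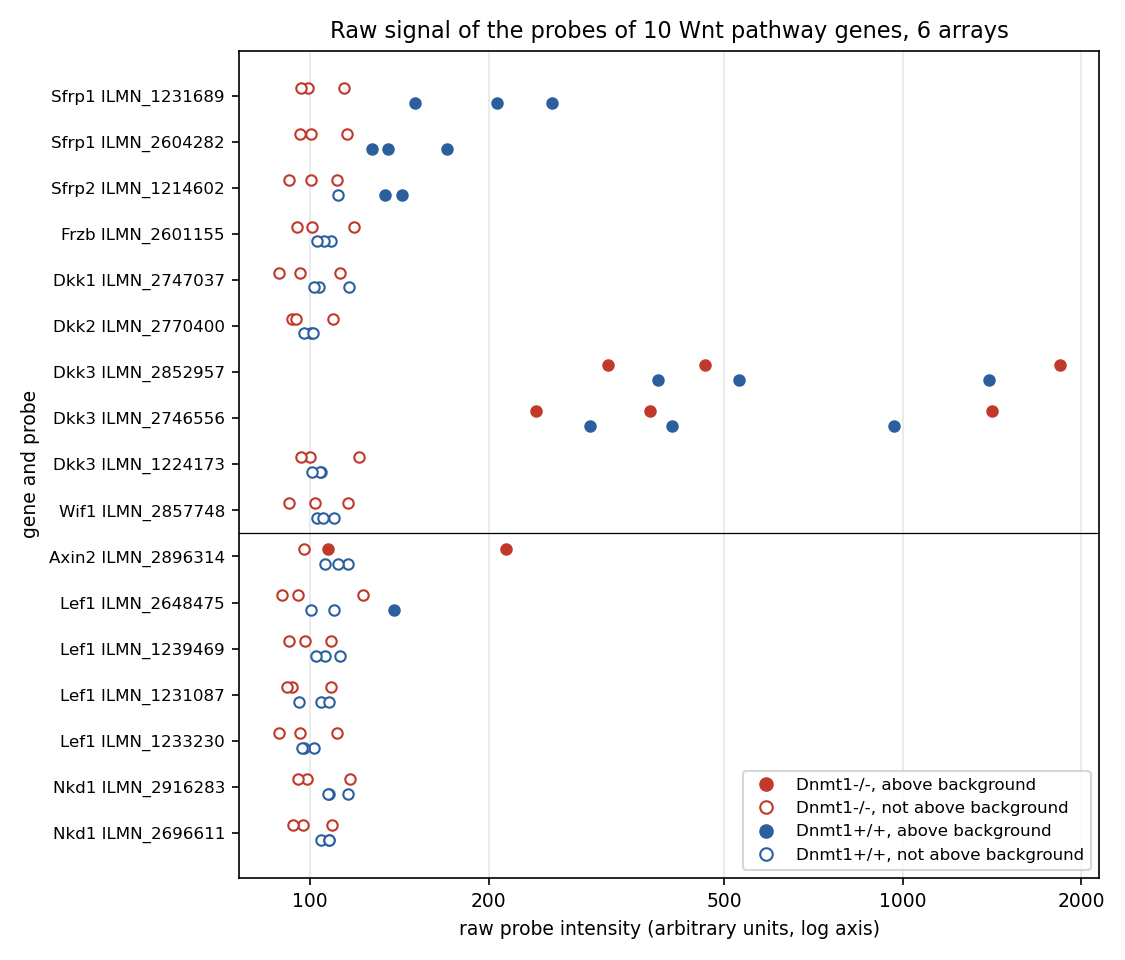
Raw intensity of each of the 17 probes on the 6 arrays, on a log axis, with Dnmt1-/- arrays in red above Dnmt1+/+ arrays in blue. Filled points are above background and the line separates secreted inhibitors from target genes. Dkk3 spans 319 to 1843 on its brightest probe, and Sfrp1 is above background on the Dnmt1+/+ arrays only.

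Sfrp1, which sequesters Wnt ligands, was the inhibitor with the clearest separation. Its brighter probe (ILMN_1231689) gave raw intensities of 114, 99.3 and 96.6 on the Dnmt1-/- arrays, none of them above background, against 150.2, 256 and 206 on the Dnmt1+/+ arrays, all above background. On the normalized log2 scale it averaged 4.48 ± 0.10 in Dnmt1-/- and 6.69 ± 0.67 in Dnmt1+/+ MEFs (SD, n = 3 each). The groups did not overlap, as was so for 21.7% of genes tested in this direction and 40.3% in either. Since the Dnmt1-/- arrays give only an upper limit, the level was at least 3.31-fold lower there with this processing. In bulk RNA, fewer cells of a type and less RNA per cell cannot be told apart. For this bound each Dnmt1-/- array was given the lowest signal that counted as above background on it, or the probe's own signal if that was higher. The second probe (ILMN_2604282) separated the groups too, with a smaller difference. It gave 115.5, 100.2 and 96.3 on the Dnmt1-/- arrays and 127, 169.8 and 135 on the Dnmt1+/+ arrays, and its bound was 1.67-fold lower in Dnmt1-/- MEFs. A probe above background on all Dnmt1+/+ and no Dnmt1-/- arrays was found for 248 genes, or 1.30% of those with a probe. The fitted log2 difference of -2.21 ± 0.31 (SE) for Sfrp1 shrank to -0.86 without background correction and to -0.93 with the authors' processed values.

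Sfrp1 lies on chromosome 8 (GRCm38.p6, 23411383 to 23449632). The genes whose level followed it most closely over the 6 arrays were Cbr1 (a carbonyl reductase), Zfp248 (a zinc finger gene) and Fam189b, with Pearson r of 0.995, 0.993 and 0.993. Their log2 differences were -2.04, -0.60 and -1.44. Like Sfrp1, Cbr1 and Fam189b were above background on no Dnmt1-/- array, and their bounds were 2.94-fold and 1.73-fold lower. Genes that separate the groups score high over 6 arrays, and 113 genes had r above 0.95.

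Sfrp2, the close relative of Sfrp1 (chromosome 3, 83765750 to 83774314), was likewise above background on Dnmt1+/+ arrays only. Its probe gave 110.9, 100.5 and 92.0 on the Dnmt1-/- arrays, none above background, against 111.3, 142.6 and 133.6 on the Dnmt1+/+ arrays, of which replicates 2 and 3 were above background. Normalized levels were 4.38 ± 0.06 in Dnmt1-/- and 5.27 ± 0.59 in Dnmt1+/+ MEFs (SD, n = 3 each), without overlap. That rests on Dnmt1+/+ replicate 1, itself not above background, at 4.59 against a highest Dnmt1-/- value of 4.44. Of the genes tested, which do not include Sfrp2, 21.7% did not overlap in this direction and 40.3% in either. With 2 Dnmt1+/+ arrays above background, the bound for Sfrp2 was 1.23-fold lower in Dnmt1-/- MEFs, and the gene stayed outside the fit. For both genes Dnmt1+/+ replicate 1 was the lowest array of its group and replicate 2 the highest.

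Markers of other cell types were read beside Sfrp1 and Sfrp2. Of 8 cartilage, bone and fat markers with a probe, 4 were above background on some array and 1, the cartilage collagen Col2a1, was called lower in Dnmt1-/- MEFs. Their summed signal was 2023 to 2289 on the Dnmt1-/- and 2160 to 2885 on the Dnmt1+/+ arrays, and Acan, which defines cartilage, was above background on none. Of 5 neural markers only Map2 was above background, and it was called lower in Dnmt1-/- MEFs. The summed neural signal was 106.9 to 116.5 on the Dnmt1-/- and 240.2 to 403.0 on the Dnmt1+/+ arrays. Sox2, Tubb3, Gfap and Snap25 were above background on none, so Map2 alone can add measured signal to that sum. Each summed signal also holds the background level of every marker that was not above background, so a sum is no measure of marker RNA alone. The part of either cell type in the differences of Sfrp1 and Sfrp2 was not tested.

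Frzb, which also belongs to the Sfrp family, stayed at background on all arrays. Its probe gave 118, 100.8 and 94.98 on the Dnmt1-/- arrays and 108.6, 105.4 and 102.7 on the Dnmt1+/+ arrays. Wif1, which binds Wnt ligands through a domain of its own, gave 116, 102.0 and 92.1 on the Dnmt1-/- arrays and 102.5, 109.8 and 105.0 on the Dnmt1+/+ arrays. The normalized values of Frzb did not overlap, with Dnmt1-/- from 4.461 and Dnmt1+/+ up to 4.459, but with no array above background nothing is read from that. A difference was not detectable for either gene at these signals, which do not show that the RNA was absent.

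Dkk3 (chromosome 7, 112116019 to 112159482) was the only gene of the set with signal above background in both genotypes, and it varied more between replicates than between genotypes. Dkk3 is the divergent member of the Dickkopf family, whose role in Wnt signalling is less settled than that of Dkk1. Its brightest probe (ILMN_2852957) gave 1843, 319 and 464 on the Dnmt1-/- arrays and 387, 529 and 1401 on the Dnmt1+/+ arrays. Dnmt1-/- replicate 1 and Dnmt1+/+ replicate 3 were thus the highest, and the groups overlapped across most of their range. Normalized levels averaged 9.40 ± 0.95 in Dnmt1-/- and 9.01 ± 1.16 in Dnmt1+/+ MEFs (SD, n = 3 each), a log2 difference of 0.39 ± 0.62 (SE). Leaving out Dnmt1-/- replicate 1 or Dnmt1+/+ replicate 1 turned the difference to -0.08 and -0.07, and leaving out Dnmt1+/+ replicate 3 raised it to 1.04.

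The spread of Dkk3 was seen with a second probe and was large for this data set. Probe ILMN_2746556 gave 1414, 241 and 375 on the Dnmt1-/- arrays and 296, 409 and 966 on the Dnmt1+/+ arrays. The normalized signals of the 2 probes differed by 0.37 to 0.58 on the log2 scale on every array, and both ranked the arrays in the same order. The remaining probe (ILMN_1224173) was not above background on any array. Its normalized values did not overlap and were higher in Dnmt1-/- MEFs, from which nothing is read at background. The SD within genotypes was 1.06 for Dkk3, against a median of 0.24 over the genes tested, and 50 genes (0.574%) had a larger one. For Sfrp1 it was 0.48, and 10.6% of genes had a larger one. That value pools an SD of 0.67 in Dnmt1+/+ with 0.10 in Dnmt1-/- MEFs, where no array was above background.

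The arrays on which Dkk3 was high also resembled each other beyond Dkk3. Across the probes tested, the deviations of Dnmt1-/- replicate 1 and Dnmt1+/+ replicate 3 from their group means correlated at r = 0.43. Those of Dnmt1-/- replicate 2 and Dnmt1+/+ replicate 3 correlated at -0.44. These values describe probes that share 6 arrays. The genes that followed Dkk3 most closely over the 6 arrays were Zmym6, Fam149b and Xbp1 (r = 0.998, 0.988 and 0.987), and 36 genes had r above 0.95. RIKEN names, predicted genes and clone names were again passed over, except in that count. Dkk3 was chosen for this search after its values were seen. Xbp1 encodes a transcription factor of the unfolded protein response. On the normalized log2 scale it measured 11.46, 10.77 and 11.10 on the Dnmt1-/- arrays and 10.59, 10.92 and 11.39 on the Dnmt1+/+ arrays, a smaller range than that of Dkk3. Among Wnt targets, Ccn5 and Bmp4 (picked after their values were seen) were also highest on these 2 arrays. Ccn5, a matricellular protein, gave raw intensities of 1021, 119.7 and 143.7 on the Dnmt1-/- arrays and 176.5, 170.8 and 423 on the Dnmt1+/+ arrays.

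**Figure D2:**
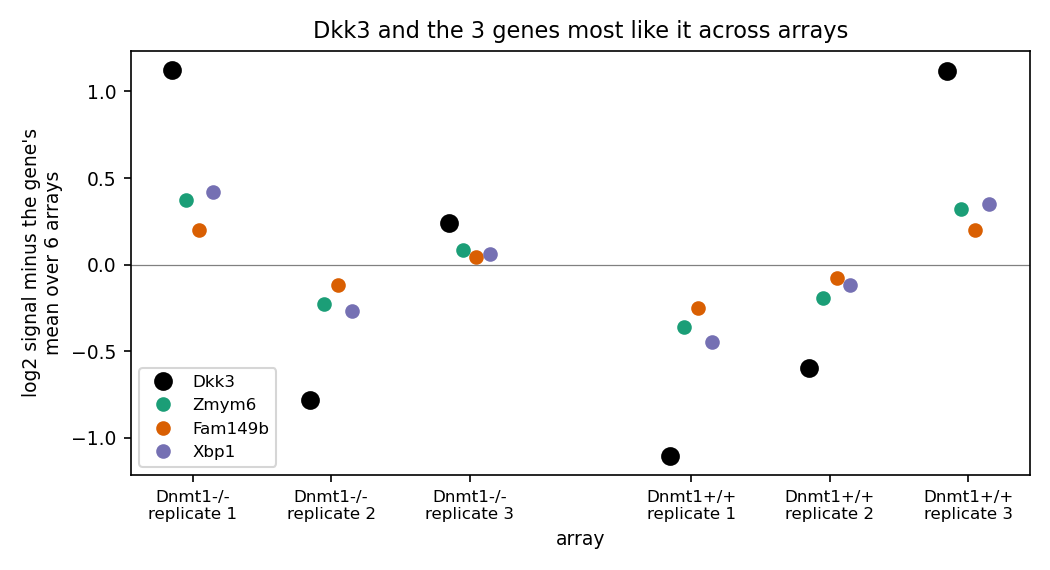
Log2 signal of Dkk3 and of Zmym6, Fam149b and Xbp1 on each array, minus the gene's own mean over the 6 arrays. All 4 genes are highest on Dnmt1-/- replicate 1 and Dnmt1+/+ replicate 3, and Dkk3 has the widest range.

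The LRP-binding inhibitors Dkk1 and Dkk2 gave no signal above background. Dkk1, itself a Wnt target in several tissues, measured 112, 96.1 and 88.6 on the Dnmt1-/- arrays and 103.6, 116 and 101.6 on the Dnmt1+/+ arrays. Dkk2 measured 109.3, 93.1 and 94.5 on the Dnmt1-/- arrays and 100.3, 97.4 and 101.1 on the Dnmt1+/+ arrays. The groups overlapped for both genes.

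Among the target genes Axin2, a scaffold of the complex that degrades β-catenin (chromosome 11, 108917828 to 108950783), was seen on 2 Dnmt1-/- arrays. Its probe gave 214, 97.8 and 107 on the Dnmt1-/- arrays, of which replicates 1 and 3 were above background, against 116, 106 and 111.5 on the Dnmt1+/+ arrays, none above background. Normalized levels were 6.36, 4.33 and 5.45 on the Dnmt1-/- arrays and 4.83, 4.35 and 4.71 on the Dnmt1+/+ arrays. Replicate 2 of the Dnmt1-/- MEFs was the lowest of all 6 arrays, so the groups overlapped. By the group means the bound was 1.36-fold higher in Dnmt1-/- MEFs. It rests on 2 arrays, of which replicate 1 was the brightest array of the series.

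Lef1, a DNA-binding partner of β-catenin, has 4 probes. Probe ILMN_2648475 gave 122.8, 95.3 and 89.7 on the Dnmt1-/- arrays and 139, 109.6 and 100.5 on the Dnmt1+/+ arrays, where replicate 1 alone was above background. The other 3 probes measured 88.4 to 112 and were above background on none. Nkd1, which binds Dishevelled and dampens the pathway, has 2 probes, and these measured 93.4 to 116.8 without reaching the threshold on any array. For Lef1 and Nkd1 the groups overlapped on every probe.

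**Figure D3:**
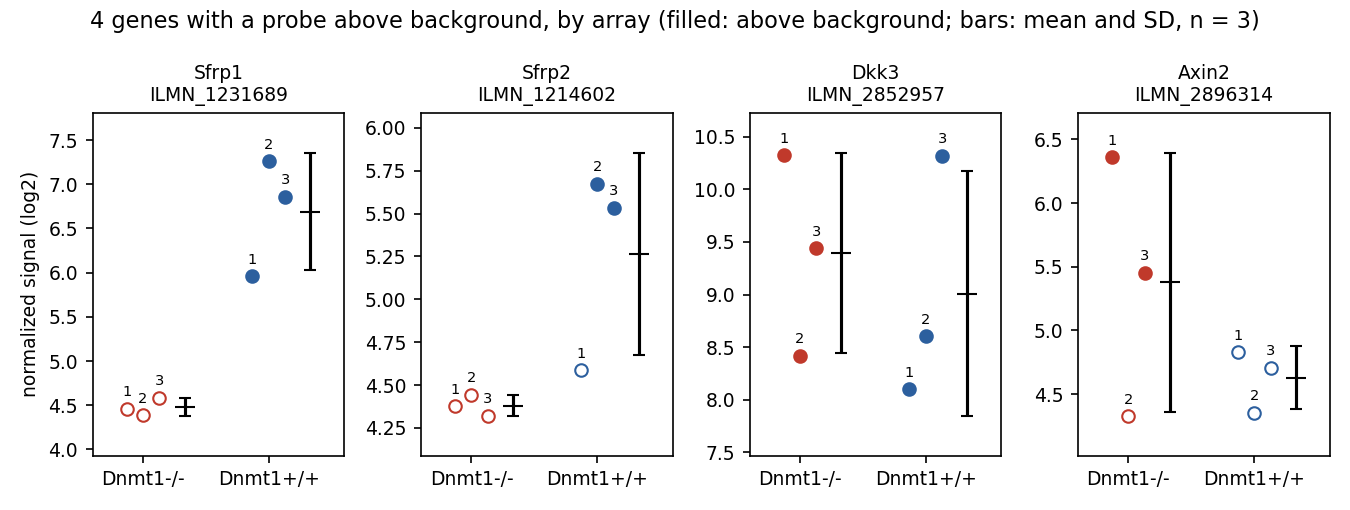
Normalized log2 signal of the brightest probe of Sfrp1, Sfrp2, Dkk3 and Axin2 on each array (numbers are replicates), with Dnmt1-/- left of Dnmt1+/+ and each panel on its own scale. Filled points are above background and bars give the mean and SD (n = 3). The genotypes separate for Sfrp1 and Sfrp2, though Dnmt1+/+ replicate 1 was not above background for Sfrp2, and overlap for Dkk3 and Axin2.

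To place these genes, the rest of the pathway was read from 8 lists of 106 genes grouped by role. Of 104 genes with a probe, 56 were tested, and 9 were called higher and 5 lower in Dnmt1-/- MEFs (limma, adjusted p under 0.05), while 42 were not called. Without Dnmt1+/+ replicate 2, 7 were higher and 3 lower. Over all genes tested 9.61% were called higher and 7.82% lower. The median log2 difference of the 56 genes was -0.05, the same as over all genes tested. Of the 9 genes called higher, 6 were ligands.

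Of 7 tested Wnt ligands, 6 were called higher, with a median log2 difference of 1.75. The remaining ligand, Wnt5a, had a log2 difference of 0.37. Wnt10a and Wnt6 were above background on 3 Dnmt1-/- and 0 Dnmt1+/+ arrays. The counts were 3 and 1 for Wnt5b and Wnt4, and 3 and 2 for Wnt7b. These ligands were tested only through their signal in Dnmt1-/- MEFs, so the filter shaped the count of 6 of 7. Wnt10b and Wnt5a were above background on all arrays. Wnt10a, Wnt6 and Wnt7b led, and Wnt5b followed at a log2 difference of 1.75 ± 0.22 (SE, limma adjusted p = 0.0013). Wnt5b gave 119.6, 118.6 and 114.8 on the Dnmt1+/+ arrays, of which replicate 1 alone was above background. Its difference was thus taken against signals near background, and without background correction it was 0.70. Porcn, the acyltransferase that attaches the lipid to Wnt proteins, rose 2.20-fold (limma adjusted p = 0.0084). Its log2 difference of 1.14 was 0.67 without background correction and 0.61 with the authors' processed values. Raw intensities of that probe overlapped, at 414, 182 and 187 on the Dnmt1-/- and 158, 187 and 174 on the Dnmt1+/+ arrays. The other Porcn probe did not pass the detection filter. Wls, which carries Wnt proteins to the cell surface, had a log2 difference of 0.51 ± 0.24 (SE) and was not called on any of its 5 probes. Of 7 epithelial markers, read because several of these ligands are typical of epithelia, Krt14 was called higher and Epcam and Cdh1 were above background on no array. Their summed signal was 166 to 208 on the Dnmt1-/- and 144 to 149 on the Dnmt1+/+ arrays. The sum includes the background level of the 5 that were above background on none. The part of these markers in the ligand differences was not tested.

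Of the other extracellular inhibitors, 3 of 10 were tested, and 1 rose and 1 fell. Notum, an enzyme that removes the lipid from Wnt proteins and is itself a Wnt target in some tissues, rose. Its brightest probe gave 569, 273 and 285 on the Dnmt1-/- arrays and 116, 112 and 152 on the Dnmt1+/+ arrays, of which 1 was above background. With this processing the rise was at least 8.11-fold (limma adjusted p = 0.00063). The fitted log2 difference of 3.20 was 1.73 without background correction and 1.68 with the authors' processed values, so the bound is no minimum under another processing. The second tested Notum probe (ILMN_2504886) was also called higher, with a smaller difference. It gave 164, 115.6 and 105.4 on the Dnmt1-/- arrays and 103.7, 100.7 and 97.1 on the Dnmt1+/+ arrays, and its bound was 1.45-fold. The remaining Notum probe did not pass the detection filter. Tpbg, a membrane glycoprotein that restrains Wnt signalling in zebrafish, fell 2.06-fold (limma adjusted p = 0.0066). Apcdd1, which binds Wnt and LRP proteins at the cell surface, had a log2 difference of -1.11 ± 0.34 (SE, limma adjusted p = 0.059). Its groups did not overlap. Like Sfrp1 and Sfrp2 it was lowest of the Dnmt1+/+ arrays on replicate 1, and without that array it was called lower (limma adjusted p = 0.0069). It was also called lower with array weights (limma adjusted p = 0.0093), and the range was 0.0069 to 0.21 over all alternatives.

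Of 8 tested receptors and co-receptors, 1 was called, Ror2, a receptor for Wnt5a, which fell 1.86-fold (limma adjusted p = 0.0078). The log2 difference of Ror2, -0.90, was -0.53 without background correction. Of 2 tested genes among the R-spondins and their receptors, Rspo2, which amplifies Wnt signalling, fell at least 2.39-fold (limma adjusted p = 0.0085). Its fitted log2 difference of -1.57 was -0.57 without background correction. Lgr6, an R-spondin receptor, had a log2 difference of 0.90 ± 0.30 (SE, limma adjusted p = 0.076). It was called higher with median scaling, with cyclic loess and without Dnmt1-/- replicate 3 (limma adjusted p = 0.016, 0.048 and 0.031, in a range of 0.016 to 0.23 over all alternatives). Of 14 tested cytoplasmic transducers, 1 was called, Ctnnbip1, an inhibitor of the binding of β-catenin to TCF factors, which fell 2.16-fold (limma adjusted p = 0.018). That call was lost in 4 of 17 alternatives. These were the fits without Dnmt1+/+ replicate 1 or 2 (limma adjusted p = 0.063 for each), with no filter and with the replicate block (limma adjusted p = 0.070 and 0.057). The range for Ctnnbip1 was 0.0096 to 0.070 over all alternatives. Of 10 tested TCF factors and cofactors, 1 was called, Pygo1, a cofactor of β-catenin, which rose 2.69-fold (limma adjusted p = 0.0042). Its log2 difference of 1.43 was 0.65 without background correction. Over all genes tested 17.4% were called, so these counts are not read as particular to a role.

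Of the list of other Wnt target genes, which does not hold Notum, 0 of 10 tested were called higher and 1 was called lower (limma), with a median log2 difference of -0.15 and a range of -1.60 to 0.51. At an unadjusted p under 0.05 the counts were 1 higher and 3 lower. The gene called lower was Fst, which encodes follistatin, an activin antagonist. Its raw intensities were 112.7, 93.9 and 93.8 on the Dnmt1-/- arrays, none above background, and 190.6, 155.6 and 124.2 on the Dnmt1+/+ arrays, all above background. It fell at least 1.97-fold (limma adjusted p = 0.013), and its fitted log2 difference of -1.60 was -0.55 without background correction. The call was lost in 5 of 16 alternatives. These were the fits without Dnmt1-/- replicate 3 and without Dnmt1+/+ replicate 2 (limma adjusted p = 0.0503 and 0.053), and those with median scaling, no background correction and no filter (limma adjusted p = 0.052, 0.053 and 0.071). Over all alternatives the range was 0.0016 to 0.071. The other 9 tested targets, which include Myc, Ccnd1 and Cd44, were above background on all 6 arrays and were not called.

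**Figure D4:**
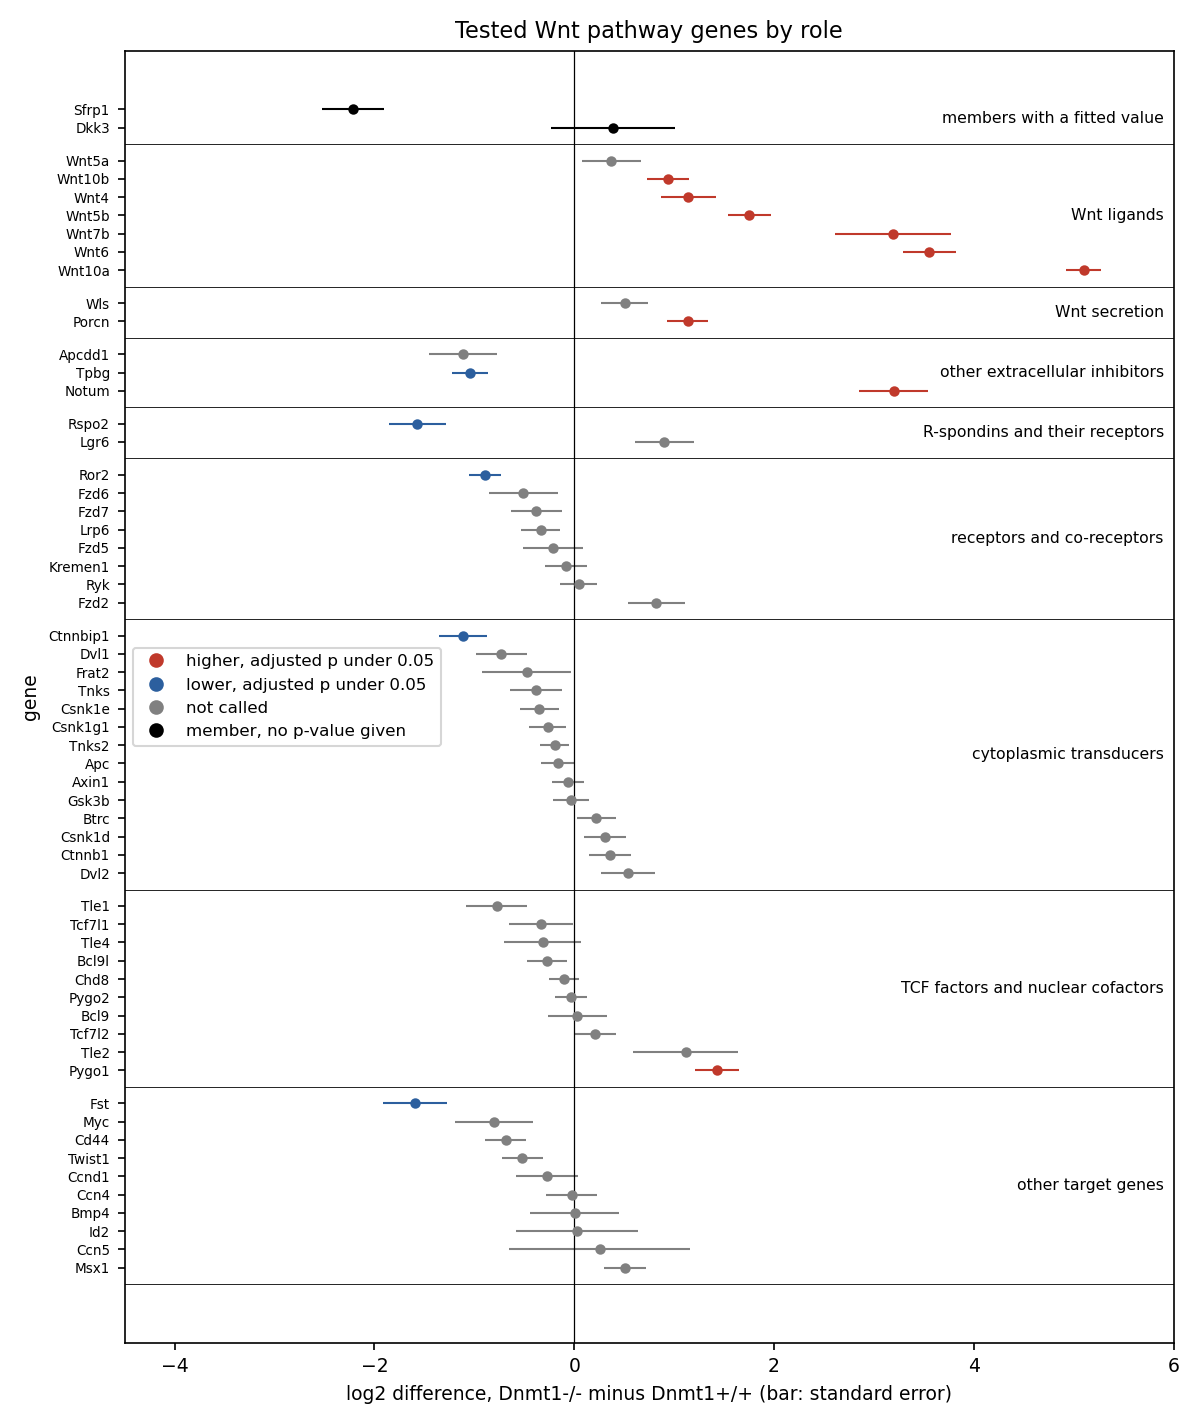
Log2 difference, Dnmt1-/- minus Dnmt1+/+, of Sfrp1, Dkk3 and the 56 other tested Wnt pathway genes by role, with the standard error. Red and blue points were called higher and lower in Dnmt1-/- MEFs, grey points were not called, and black points, the members of the set of 10, are shown without a p-value. Of 7 ligands 6 lie to the right as called, and 1 of 10 other target genes is called, to the left. Among these ligands Wnt10b and Wnt5a alone were above background on every array of both genotypes.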

How the data were processed

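RNA from 3 Dnmt1-/- and 3 Dnmt1+/+ MEF samples was measured on Illumina BeadChips. The authors deposited raw probe intensity values on a linear scale with a detection p-value per probe and array, and a table of intensity values they had made with lumi, whose version is not given, through background subtraction, variance stabilization and robust spline normalization. The processed values are on a linear scale, and how the transformation was undone is not given in the sources used here.

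The raw table (45281 probes) was background corrected and normalized in R 4.3.3 with the neqc function of limma 3.58.1 (background from detection p-values, offset 16, quantile normalization, log2). The 15795 probes with detection p under 0.01 on at least 3 of 6 arrays entered lmFit and eBayes with genotype as the sole term, and two-sided p-values were adjusted by Benjamini-Hochberg across them. A gene (8716) is its tested probe with the highest mean. Of all probes 34885 have 1 gene symbol, 18 several and 10378 none, and 34807 matched RefSeq. The members and gene lists were chosen with earlier results of these data known. Named genes are the members, Dnmt1, from each list the called genes with the largest differences, 4 at most (or every tested gene where 4 or fewer were tested), and the 3 genes most like Sfrp1 over the arrays. Dkk3's 3 most similar genes and Wnt4, Wnt5a, Wnt10b, Ccn5, Bmp4, Myc, Ccnd1 and Cd44 fall outside this rule and were picked later, with their values known. The steps were tested on simulated data with changes placed in bright probes only, which cannot speak for signals near background. Array number limits precision. Alternatives covered scaling, background correction, offset, filter, probe choice, array weights, a replicate block and leaving out each array.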

Additional observations from a re-analysis of the deposited data

How the results depend on the processing

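The difference of Sfrp1 kept its direction under all 16 alternatives that gave a value, between -2.58 and -0.86 on the log2 scale. It was -0.86 without background correction, -0.93 with the authors' processed values, -1.31 with an offset of 50 and -1.71 as the mean of both probes, and it had no value where detection on all 6 arrays was asked for. Leaving out 1 array gave -2.58 to -1.93 for Sfrp1 and -0.08 to 1.04 for Dkk3, where Dkk3 turned to -0.0781 without Dnmt1-/- replicate 1 and to -0.0675 without Dnmt1+/+ replicate 1. Of the other pathway genes, 3 were called higher and 3 lower with detection on all 6 arrays, 3 lower with no filter and 10 lower with array weights, against 9 higher and 5 lower. Leaving out 1 array gave 7 to 10 higher and 3 to 6 lower, with the fewest lower without Dnmt1+/+ replicate 2. Over all genes, 838 were called higher and 682 lower. Detection on all 6 arrays gave 476 and 399, no filter 554 higher, and array weights 1349 and 1416. Leaving out 1 array gave 458 to 820 higher and 281 to 661 lower. These were 506 and 323 without Dnmt1-/- replicate 3, 484 and 334 without Dnmt1+/+ replicate 1, and 458 and 281 without Dnmt1+/+ replicate 2. With no filter Wnt7b, Ctnnbip1 and Fst were among the genes no longer called (limma adjusted p = 0.067, 0.070 and 0.071). Bounds given as at least, that of Sfrp1 among them, hold for this processing only. Without background correction and with the authors' processed values the log2 differences were 1.73 and 1.68 for Notum and 0.70 and 0.75 for Wnt5b. They were -0.57 and -0.64 for Rspo2, -0.55 and -0.64 for Fst, and 0.65 and 0.66 for Pygo1. Deviations of same-numbered arrays from their group means correlated at r = -0.23, 0.33 and -0.14. The highest value was that of Dnmt1-/- replicate 1 with Dnmt1+/+ replicate 3 (r = 0.43). Because deviations cancel within a group of 3 arrays, these values cannot show whether the numbers pair the samples. With the replicate block 399 genes were called lower, 10 other pathway genes were higher and 4 lower, and Ctnnbip1 was not called (limma adjusted p = 0.057). The causes were not tested. Signals near background limit Frzb, Dkk1, Dkk2, Wif1, Lef1 and Nkd1, for which a change of low RNA levels would not be seen.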
